A study of Mus musculus with 6 samples.

Results

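The 9 genes described here are the D-type cyclins Ccnd1, Ccnd2 and Ccnd3, the E-type cyclins Ccne1 and Ccne2, the cyclin-dependent kinases Cdk2, Cdk4 and Cdk6, and the phosphatase gene Cdc25a. They were found by gene symbol among the 55487 genes of the deposited table, and 9 of 9 passed the filter on low counts that left 14663 genes for testing. RNA-seq compared cells of the mouse prostate cancer line RM-1 that carried a lentivirus for overexpression of Bhlhe22 (Bhlhe22 cells) with RM-1 cells given the blank lentiviral vector (vector cells). Each group has 3 libraries. The product of Bhlhe22 is a transcription factor of the basic helix-loop-helix family. The labels give no time after infection, no promoter for the transgene and no word on clones or on separate cultures for the replicates, so p-values measure only the spread between these libraries, which may be technical.

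A cell that leaves G1 for DNA synthesis passes through successive waves of cyclin-dependent kinase activity. D-type cyclins, made in response to growth factors, bind Cdk4 and Cdk6 and begin to phosphorylate the retinoblastoma protein and its relatives, the pocket proteins, which hold E2F transcription factors in check. Freed E2F activates the genes of cyclin E among others, cyclin E then binds Cdk2 and phosphorylates the pocket proteins further, and Cdc25a removes the inhibitory phosphate from Cdk2. Ccne1, Ccne2 and Cdc25a are themselves known E2F targets, whereas the D-type cyclins are mostly set by growth factor signals and by protein turnover.

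The libraries held between 15464709 and 25129552 counts. Bhlhe22 had 0 counts in the 3 vector libraries and between 8706 and 17995 in the 3 Bhlhe22 libraries. Of 6 epithelial markers, Krt8 and Krt18 were abundant, Epcam was at 0.947 to 1.27 FPKM, Krt14 and Cdh1 had at most 4 and 6 counts in a library, and Krt5 had 0 counts throughout, while the prostate luminal markers Pbsn and Hoxb13 had 0 counts in all 6 libraries. Of 6 leukocyte markers 4 had 0 counts in every library and Ptprc had 0 to 3. The remaining one was Cd68, at 18.4 to 20.7 FPKM in vector and 20.9 to 25.1 FPKM in Bhlhe22 libraries. Summed FPKM of 6 epithelial markers was 828 to 871 in vector and 688 to 812 in Bhlhe22 libraries, that of 4 mesenchymal markers 329 to 349 and 217 to 262, and that of 4 fibroblast markers 6.14 to 6.23 and 7.06 to 9.07. Within these sums the members differed. Krt8 was at 381 to 394 FPKM in vector and 263 to 293 FPKM in Bhlhe22 libraries. Krt18 overlapped between the groups, at 446.5 to 475.6 and 423.7 to 518.1 FPKM. Vim, Cdh2 and S100a4 were lower in every Bhlhe22 library than in every vector library, while Fn1 was at 15.4 to 18.9 FPKM in vector and 15.7 to 25.8 FPKM in Bhlhe22 libraries. Of the fibroblast markers Pdgfrb carried the sum, at 5.33 to 5.56 and 6.54 to 8.47 FPKM, Acta2 was at 0.286 to 0.401 and 0.184 to 0.204 FPKM, and Dcn had at most 3 counts in a library. Sums of 4 endothelial markers overlapped, at 0.725 to 1.01 and 0.622 to 0.809. The part of these shifts in the results below was not tested. Bhlhe22 replicate 1 had the fewest counts and lay farthest from its group, with a root mean square deviation of 0.26 on the log2 scale over 10126 protein-coding genes, against 0.15 to 0.21 in the other 5 libraries.

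Both E-type cyclins, Ccnd1 and Cdc25a were lower in Bhlhe22 cells. Their falls ranged from 1.38-fold for Cdc25a to 2.41-fold for Ccne1. None of the 9 genes was called higher, and the 3 kinases, Ccnd2 and Ccnd3 did not pass the test. The 4 calls of 9 compare with 19.6% of all tested genes called in either direction and 9.28% called lower (edgeR quasi-likelihood test, Benjamini-Hochberg threshold 0.05). By DESeq2 and limma-voom the counts were also 4 lower and 0 higher. Ccnd2, with a higher mean in Bhlhe22 cells, had an edgeR p of 0.039 before and 0.126 after adjustment. The median log2 fold change of the 9 genes was -0.40, beside 0.01 for all tested genes. In bulk RNA, fewer cells in a given phase of the cycle and less RNA per cell cannot be told apart.

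**Figure D1:**
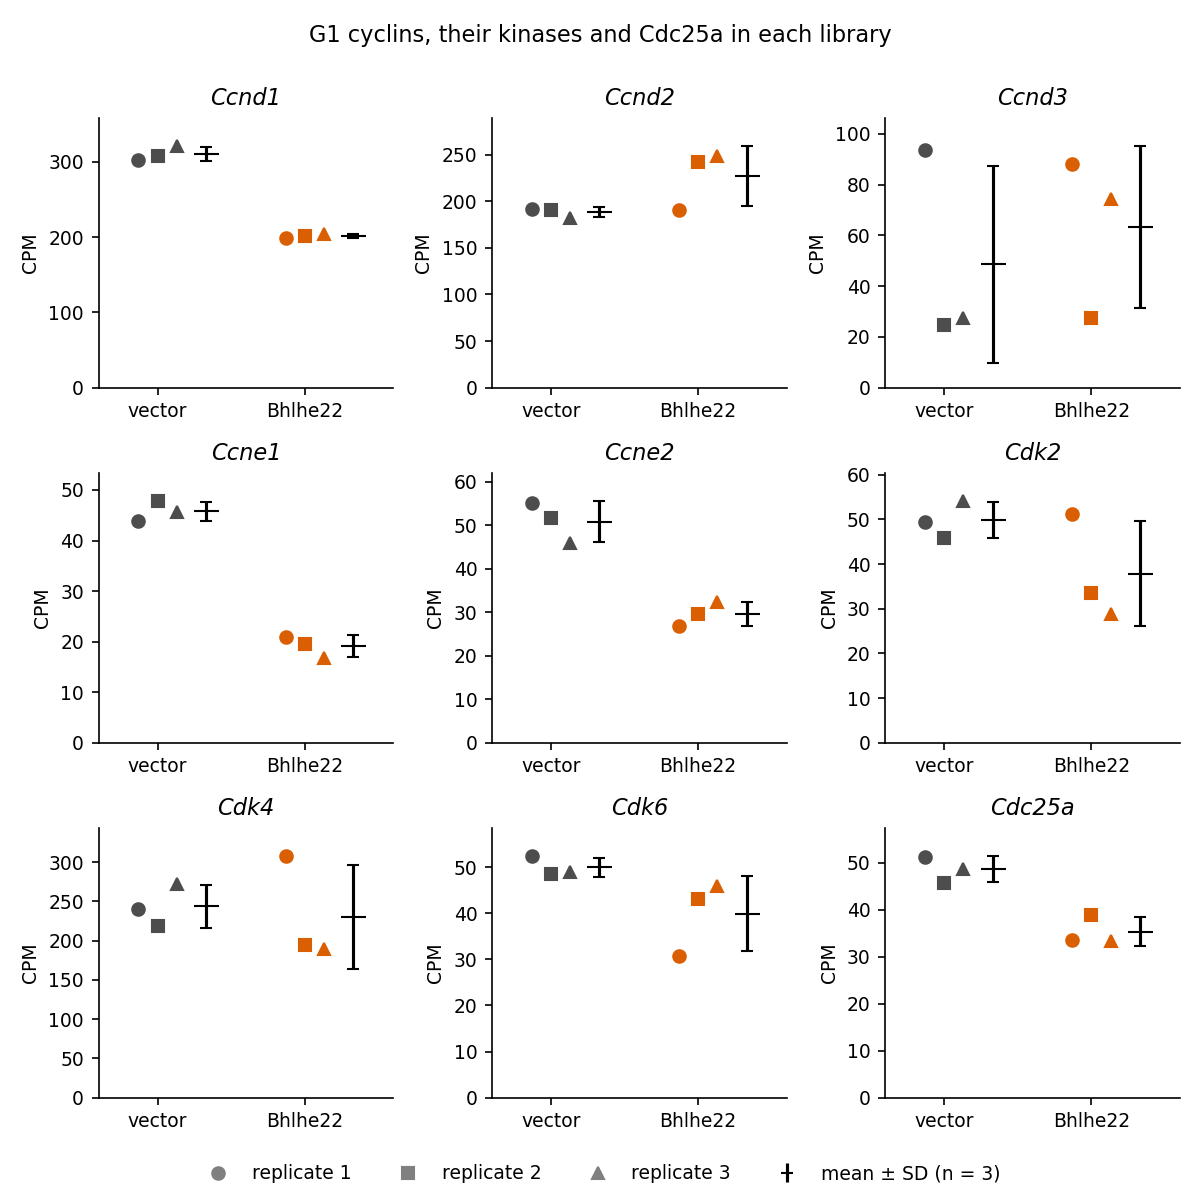
Normalised counts (CPM on TMM-scaled library sizes, linear axes from 0) of the 9 genes in the 3 vector and the 3 Bhlhe22 libraries, with each group's mean and SD. The groups are apart for Ccnd1, Ccne1, Ccne2, Cdk6 and Cdc25a, and Bhlhe22 replicate 1 lies away from the other Bhlhe22 libraries for Ccnd2, Cdk2, Cdk4 and Cdk6.

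Ccnd1 encodes cyclin D1, the D-type cyclin most often tied to growth factor input. It stood at 302, 308 and 320 CPM in vector replicates 1, 2 and 3 and at 198, 202 and 204 CPM in Bhlhe22 replicates 1, 2 and 3. Every Bhlhe22 library was below every vector library, as held for 40.8% of all tested genes in one direction or the other. The log2 fold change was -0.62 (SE 0.06, edgeR adjusted p = 0.000905, n = 3 per group). With a root mean square deviation from the group means of 0.03 on the log2 scale, Ccnd1 was among the tightest genes, since 97.6% of the protein-coding genes compared were more variable. Ccnd1 (GRCm38 chr7:144929931-144939925, minus strand) shares 23.4% of its exon length with LTO1 on the other strand. LTO1 was at 6.95 ± 2.84 CPM in vector cells and 6.50 ± 3.92 CPM in Bhlhe22 cells (SD, n = 3). Without knowledge of whether counting used strand, reads of such opposite pairs cannot be told apart.

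Ccnd2, the gene of cyclin D2, did not follow Ccnd1. Its values were 192, 191 and 182 CPM in vector replicates 1, 2 and 3 and 191, 242 and 249 CPM in Bhlhe22 replicates 1, 2 and 3. Bhlhe22 replicates 2 and 3 were above all vector libraries, while Bhlhe22 replicate 1 was within their range. The log2 fold change of 0.27 (95% interval 0.02 to 0.53) did not pass the adjusted threshold (edgeR adjusted p = 0.126). Without Bhlhe22 replicate 1 it was 0.38 and was called (edgeR adjusted p = 0.000727). Ccnd2 (chr6:127125162-127152193, minus strand) shares 7.86% of its exon length with antisense genes.

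Ccnd3, the gene of cyclin D3, split the libraries without regard to group. It was at 93.5, 24.8 and 27.5 CPM in vector replicates 1, 2 and 3 and at 88.1, 27.4 and 74.2 CPM in Bhlhe22 replicates 1, 2 and 3. Vector replicate 1 and Bhlhe22 replicates 1 and 3 were high, and the other 3 libraries were low. The log2 fold change was 0.38 with a 95% interval from -1.09 to 1.86 (edgeR adjusted p = 0.719), so a change of that size in either direction was not detectable. Leaving out 1 library moved the log2 fold change to between 0.07 and 1.27, never called. It was 1.27 without vector replicate 1 (edgeR adjusted p = 0.155), 0.75 without Bhlhe22 replicate 2, 0.25 without Bhlhe22 replicate 3, and 0.07, 0.10 and 0.07 without vector replicate 2, vector replicate 3 and Bhlhe22 replicate 1. Its root mean square deviation from the group means was 0.81, larger than that of all but 0.494% of the protein-coding genes compared.

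Genes with the profile nearest to that of Ccnd3 over the 6 libraries were looked up after its values were seen. They were chosen by that profile, so their sharing its split follows from the choice. Dlst, a subunit gene of the 2-oxoglutarate dehydrogenase complex, was at 251, 125 and 117 CPM in vector replicates 1, 2 and 3 and at 280, 122 and 247 CPM in Bhlhe22 replicates 1, 2 and 3 (root mean square distance 0.31 on the log2 scale). Ube2l6, a conjugating enzyme for the ubiquitin-like protein ISG15, followed at a distance of 0.39, and Cald1, which encodes the actin-binding caldesmon, at 0.44. The nearest genes of Ccnd1, Ccne1 and Cdk4 lay closer to them, at 0.02, 0.08 and 0.05. Ccnd3 (chr17:47505051-47599691, plus strand) shares 4.11% of its exon length with Bysl on the other strand, which was at 71.3 ± 6.28 CPM in vector and 94.8 ± 7.33 CPM in Bhlhe22 cells (SD, n = 3; edgeR adjusted p = 0.0237). The processed pseudogene Ccnd3-ps had between 11 and 31 counts in a library, against 511 to 1864 for Ccnd3. What the 3 high libraries have in common was not tested, and how reads were assigned to these genes could not be checked from the deposited table.

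**Figure D2:**
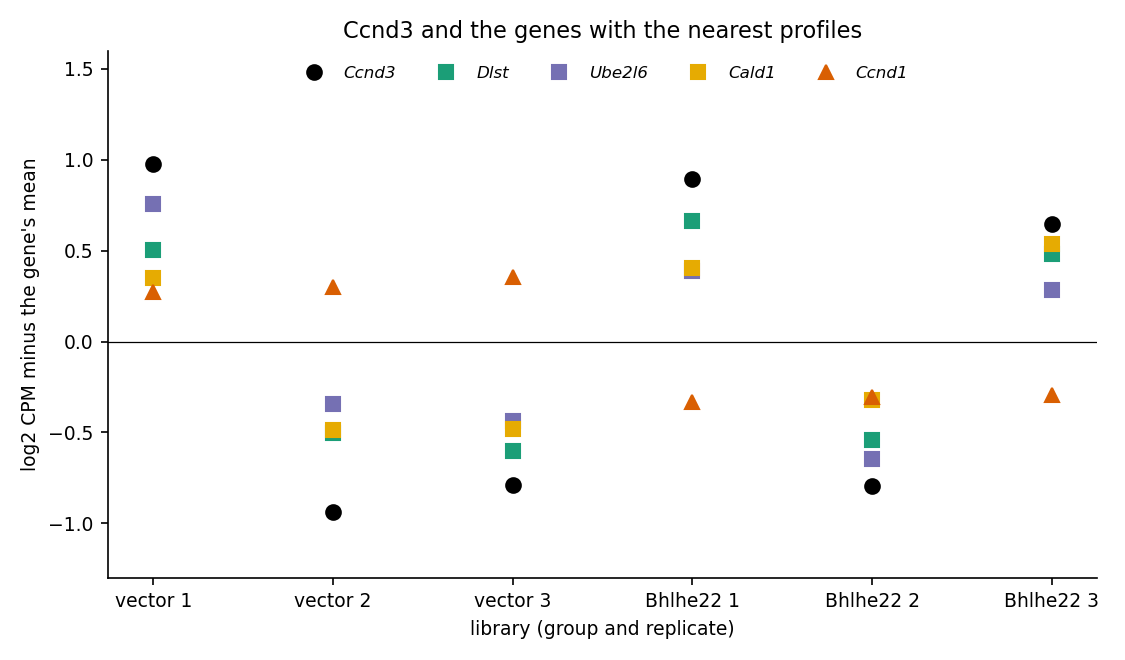
Log2 CPM of Ccnd3, of its 3 nearest genes and of Ccnd1 in each library, each minus the gene's mean over the 6 libraries. Ccnd3, Dlst, Ube2l6 and Cald1 are high in vector replicate 1 and Bhlhe22 replicates 1 and 3, whereas Ccnd1 follows the groups. The 3 nearest genes were chosen by their likeness to the profile of Ccnd3.

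Ccne1, which encodes cyclin E1, fell the most of the 9 genes. Its values were 43.9, 47.7 and 45.7 CPM in vector replicates 1, 2 and 3 and 20.96, 19.5 and 16.7 CPM in Bhlhe22 replicates 1, 2 and 3. The lowest vector library was above the highest Bhlhe22 library, and the log2 fold change was -1.27 (SE 0.11, edgeR adjusted p = 0.000467). Ccne2, the gene of cyclin E2, was at 55.0, 51.5 and 45.8 CPM in vector libraries and at 26.9, 29.5 and 32.4 CPM in Bhlhe22 libraries, in the same order. It fell by 0.78 on the log2 scale (SE 0.11, edgeR adjusted p = 0.00329), again with no overlap between the groups. Ccne1 (chr7:38097984-38107534, minus strand) shares no exon with another gene. Of the exon length of Ccne2 (chr4:11191351-11204779, plus strand) 17.4% overlaps Ints8 on the other strand. Ints8 was at 84.7 ± 6.14 CPM in vector cells and 78.5 ± 5.67 CPM in Bhlhe22 cells (SD, n = 3; edgeR adjusted p = 0.436).

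Cdc25a, the phosphatase that activates Cdk2, was at 51.3, 45.7 and 48.8 CPM in vector replicates 1, 2 and 3 and at 33.6, 38.8 and 33.4 CPM in Bhlhe22 replicates 1, 2 and 3. The groups did not overlap, and the log2 fold change was -0.46 (SE 0.09, edgeR adjusted p = 0.0155). This was the smallest of the 4 falls. It was not called without vector replicate 1 (edgeR adjusted p = 0.0753) or vector replicate 3 (0.063), nor when a change beyond 1.2-fold was required (0.0975). Cdc25a (chr9:109875579-109893895, plus strand) shares no exon with another gene.

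E2F factors bind near the start sites of many genes of this transition, so the promoters of the 9 genes were searched for the E2F consensus, spelled out as TTTCCCGC, TTTCGCGC, TTTGCCGC and TTTGGCGC on both strands. RefSeq promoter windows (GRCm38.p6, 250 bases before to 50 after a start) were matched by symbol for 6 of the 9 genes, Ccne1, Ccnd3, Cdk2, Cdk4, Cdk6 and Cdc25a, in 7 windows. No window was found for Ccnd1 and Ccne2, which fell, or for Ccnd2. Matches were in 2 of the 7 windows, those of Cdc25a and Cdk2, while 2.26% of the 32851 windows of all genes held a match. Each spelling contains the letters CG, which occur 15 to 41 times in each of the 7 windows. The share over all windows was not matched for CG content, so the 2 shares cannot be compared directly. The match in Cdc25a, which fell, begins 67 bases before the start on the gene's own strand (chr9:109875501-109875530, plus strand). In Cdk2, which did not pass the test, the match begins 140 bases before the start with its reverse complement on the gene's strand (chr10:128705173-128705202, minus strand). The stretches around them are shown 5′ to 3′ on the gene's strand because they are the only matches found, with the matched letters in capitals.
Cdc25a: ggtgaattccgTTTGGCGCcaactaggaaa
Cdk2: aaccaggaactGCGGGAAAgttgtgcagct
Each stretch holds 1 match, and the 4 spellings differ from one another in their middle letters. A match is a description of these letters, and a window without one says only that these spellings are absent from it, as in the window of Ccne1.

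The kinase genes showed no change that passed the test. Cdk2, the partner of E-type cyclins, was at 49.5, 45.9 and 54.0 CPM in vector replicates 1, 2 and 3 and at 51.2, 33.6 and 28.8 CPM in Bhlhe22 replicates 1, 2 and 3. Cdk4, a partner of the D-type cyclins, was at 240, 218 and 273 CPM in vector libraries and at 307, 194 and 189 CPM in Bhlhe22 libraries, in the same order. For both genes Bhlhe22 replicates 2 and 3 were below every vector library and Bhlhe22 replicate 1 was above at least 2 of them. The log2 fold changes were -0.40 for Cdk2 (95% interval -0.89 to 0.09, edgeR adjusted p = 0.226) and -0.08 for Cdk4 (-0.54 to 0.38, edgeR adjusted p = 0.816). Without Bhlhe22 replicate 1 they were -0.68 (edgeR adjusted p = 0.00165) and -0.35 (0.0332), both called. Without Bhlhe22 replicate 3 that of Cdk2 was -0.23 (edgeR adjusted p = 0.429). For Cdk4 the direction turned, to between 0.007 and 0.04, when vector replicate 3 or either of the other Bhlhe22 replicates was left out.

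Cdk6, the other partner of the D-type cyclins, was at 52.3, 48.6 and 49.0 CPM in vector replicates 1, 2 and 3 and at 30.6, 43.1 and 45.9 CPM in Bhlhe22 replicates 1, 2 and 3. All Bhlhe22 libraries were below all vector libraries, but replicate 1 stood well under the other 2, and the log2 fold change of -0.32 (95% interval -0.68 to 0.03) was not called (edgeR adjusted p = 0.18). Without Bhlhe22 replicate 1 it was -0.17 (edgeR adjusted p = 0.096). Bhlhe22 replicate 1 was thus the highest Bhlhe22 library for Cdk2 and Cdk4 and the lowest for Cdk6 and Ccnd2. Cdk2 (chr10:128697939-128705031, minus strand) and Cdk6 (chr5:3341485-3531008, plus strand) share 0.55% and 2.63% of their exon length with other genes. Of the exon length of Cdk4 (chr10:127063534-127067920, plus strand) 19.7% is shared with Tspan31 on the other strand, which rose from 110 ± 5.43 to 147 ± 13.5 CPM (SD, n = 3; log2 fold change 0.41, edgeR adjusted p = 0.0176). The part of reads from Tspan31 in the value of Cdk4 was not tested.

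Levels of different genes can be set side by side only per length, and here the length matters. Among 10426 genes that reached 100 counts in each library, 97.5% had a deposited FPKM that implied, within 0.1%, the summed length of all distinct annotated exons, in which overlapping exons of different transcripts are counted repeatedly. For the 9 genes that length ran from 3757 bases (Ccne1) to 17124 bases (Cdk6), above the exon union, the exonic bases counted once, of 2662 to 13989 bases. With FPKM recomputed on the exon union, Cdk4 led in vector cells at 75.5 ± 8.51 and Ccnd1 followed at 66.3 ± 2.01, with ranges that overlapped. Next came Ccnd2 at 20.1 ± 0.553, Ccne1 at 17.3 ± 0.733, Ccne2 at 14.6 ± 1.33, Cdk2 at 8.06 ± 0.658, Cdc25a at 6.10 ± 0.341 and Cdk6 at 3.59 ± 0.144, none overlapping its neighbour. Ccnd3, at 5.57 ± 4.45, overlapped Cdk2, Cdc25a and Cdk6 (all SD, n = 3). By the deposited FPKM the order of the leading genes was the other way, with Ccnd1 at 55.7 ± 1.69 and Cdk4 at 38.4 ± 4.33 FPKM in vector cells.

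In Bhlhe22 cells, on the exon union scale, Cdk4 remained highest at 70.2 ± 19.8, and Ccnd1 was at 42.4 ± 0.959 and Ccnd2 at 23.9 ± 3.50, without overlap. Below these, Ccne2 at 8.40 ± 0.851, Ccne1 at 7.09 ± 0.757, Ccnd3 at 7.14 ± 3.58 and Cdk2 at 6.03 ± 1.84 overlapped one another. Cdc25a was at 4.36 ± 0.379, with 1 of its 3 libraries inside the range of Cdk2 and 3 of 3 inside that of Ccnd3, and Cdk6 had the lowest mean of the 9 genes in both groups on this scale, at 2.83 ± 0.594 in Bhlhe22 cells. The E-type cyclins summed to 31.9 ± 1.28 in vector and 15.5 ± 0.163 in Bhlhe22 cells, and the D-type cyclins to 92.0 ± 3.35 and 73.5 ± 4.09, with no overlap between the groups for either sum.

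Whether paralogs or partners changed unequally was examined through 7 log2 ratios of deposited FPKM within each library. The level of such a ratio depends on the lengths used. For ratios of single genes the difference between the groups does not. The log2 ratio of Ccnd1 to Ccnd2 was 1.86 ± 0.08 in vector and 0.98 ± 0.19 in Bhlhe22 cells (SD, n = 3), a difference of -0.88 without overlap. On the exon union scale the share of D-type cyclin signal that came from Ccnd1 was 67.4%, 73.9% and 75.2% in vector replicates 1, 2 and 3 and 58.2%, 59.8% and 55.4% in Bhlhe22 replicates 1, 2 and 3. That from Ccnd2 was 21.9% ± 0.860 in vector and 32.5% ± 4.07 in Bhlhe22 cells (SD, n = 3). The log2 ratio of Ccne1 to Ccne2 was 0.91 ± 0.16 in vector and 0.41 ± 0.30 in Bhlhe22 cells, with the lowest vector library at 0.73 and the highest Bhlhe22 library at 0.69. On the exon union scale Ccne1 made up 54.3% ± 2.82 of E-type cyclin signal in vector and 45.8% ± 5.16 in Bhlhe22 cells (SD, n = 3). On that scale Ccne2 was above Ccne1 in Bhlhe22 replicates 2 and 3 but not in replicate 1. By deposited FPKM the log2 ratio of summed E-type cyclins to Cdk2 was 2.17 ± 0.17 in vector and 1.53 ± 0.40 in Bhlhe22 cells, also without overlap. Bhlhe22 replicate 1 was the lowest library of that ratio, at 1.07 against 1.67 and 1.84 in the other Bhlhe22 libraries. Without it the difference was -0.41 in place of -0.64, and with counts in place of FPKM it was -0.55, with an exact permutation p of 0.20. In these 3 ratios of FPKM the exact two-sided permutation p was 0.10, the smallest that 3 against 3 libraries can give, and 0.233 after adjustment over the 7 ratios.

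The remaining 4 ratios overlapped between the groups. The log2 ratio of Cdk4 to Cdk6 was 3.62, 3.59 and 3.90 in vector replicates 1, 2 and 3 and 4.75, 3.60 and 3.47 in Bhlhe22 replicates 1, 2 and 3, the high value being that of Bhlhe22 replicate 1. Summed D-type cyclins relative to the sum of Cdk4 and Cdk6 were at 0.85 ± 0.14 in vector and 0.63 ± 0.40 in Bhlhe22 cells, and Bhlhe22 replicate 1 was again apart, at 0.17. Without that library the differences were -0.17 for the kinase ratio and 0.01 for the cyclin to kinase ratio, each with the sign turned. On the exon union scale the D-type sum was 92.0 ± 3.35 in vector and 73.5 ± 4.09 in Bhlhe22 cells (SD, n = 3). The sum of Cdk4 and Cdk6 was 79.1 ± 8.51 and 73.0 ± 19.3 on that scale. The ratios of Ccnd1 and of Ccnd2 to Ccnd3 followed the split of Ccnd3, with differences of -1.12 and -0.24 (exact permutation p = 0.20 and 1.0).

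**Figure D3:**
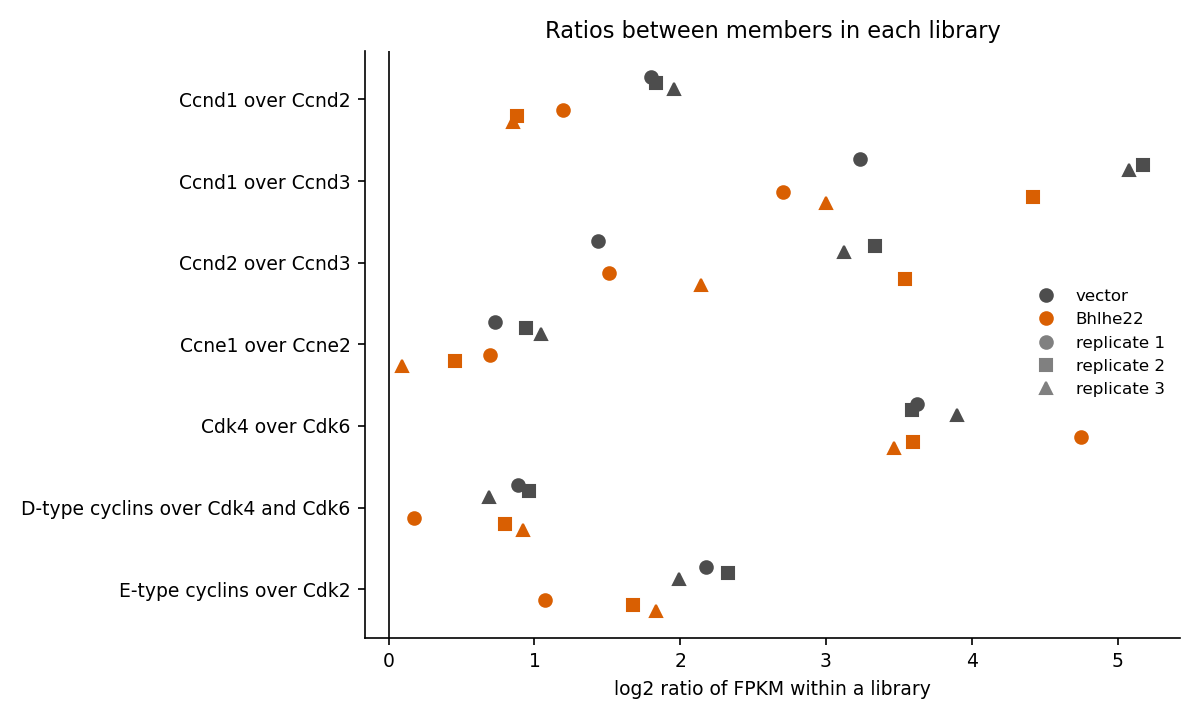
Log2 ratios of deposited FPKM between members or sums of members within each library, by group (colour) and replicate (symbol). The groups are apart for Ccnd1 over Ccnd2, Ccne1 over Ccne2 and E-type cyclins over Cdk2, and Bhlhe22 replicate 1 stands apart for Cdk4 over Cdk6.

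Other genes of the G1 to S transition and the later cycle were read from 6 lists with 42 genes, of which 38 passed the filter on low counts. Of these 38, 17 were lower, 2 were higher and 19 did not pass the test, against 9.28% lower and 10.4% higher among all tested genes. The counts of each list below are to be read beside those same shares. Of the 17 lower genes 8 were called without each library in turn, and of the 2 higher genes 0. The median log2 fold change of all 38 tested list genes was -0.29, beside 0.01 for all tested genes.

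Among 13 pocket protein and E2F genes, 7 fell and 0 rose, with a median log2 fold change of -0.42. E2f7 and E2f8, the atypical E2F repressors that are themselves E2F targets, fell the most. E2f7 went from 60.9 ± 5.51 to 22.6 ± 2.99 CPM (SD, n = 3; log2 fold change -1.43, edgeR adjusted p = 0.000534) and E2f8 from 74.0 ± 2.85 to 33.3 ± 4.04 CPM (-1.15). The activators E2f1 (-0.81) and E2f2 (-0.64) also fell in log2 fold change, while E2f4, a factor that acts with pocket proteins in resting cells, was at 165 ± 3.80 and 165 ± 5.41 CPM. Rb1, which encodes the retinoblastoma protein, had a log2 fold change of 0.30 that was not called (edgeR adjusted p = 0.303). Genes on the other strand share 11.2% of the exon length of E2f8 and 14.9% of that of Rb1. Without single libraries the list had 4 to 7 lower genes, and without Bhlhe22 replicate 1 also 1 higher, Rb1. E2f4 and Rb1 were chosen after their values were seen.

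Of 7 CDK inhibitor genes 5 were tested, of which 2 fell and 0 rose. Cdkn2c, which encodes the Cdk4 and Cdk6 inhibitor p18, fell from 32.0 ± 0.987 to 19.9 ± 0.872 CPM (SD, n = 3; log2 fold change -0.68, edgeR adjusted p = 0.00178), and Cdkn1c, the gene of p57, fell by 0.39 on the log2 scale but kept its call in 1 of the 6 fits without a library, and 30.7% of its exon length lies opposite an antisense gene. Cdkn1a, the gene of p21, was at 122, 361 and 380 CPM in vector replicates 1, 2 and 3 and at 452, 440 and 392 CPM in Bhlhe22 replicates 1, 2 and 3 (edgeR adjusted p = 0.351). Vector replicate 1 was far below the other 5 libraries, and the groups did not overlap; the gene was chosen after its values were seen. Cdkn2a and Cdkn2b, neighbouring genes of the INK4 inhibitor family, had 0 counts in all 6 libraries.

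Cyclins and partners of the later cycle fell in 5 of 6 tested cases and rose in 0. Ccnf, the gene of cyclin F, went from 139 ± 3.61 to 70.6 ± 1.46 CPM (SD, n = 3; log2 fold change -0.98, edgeR adjusted p = 0.000169) and Ccna2, the S phase cyclin A2, from 238 ± 8.07 to 148 ± 3.99 CPM (-0.68). Ccna2 shares 12.5% of its exon length with Exosc9 on the other strand. The mitotic cyclin genes Ccnb1 (-0.43) and Ccnb2 (-0.42) fell less in log2 fold change, with Ccnb2 called in 1 of the 6 fits without a library. Wee1 (-0.57), the kinase that opposes Cdc25 phosphatases, and Cdc25b (-0.28) fell among 4 genes of that switch, and Cks1b (-0.49), a cofactor for the destruction of p27, among 7 tested turnover genes. Wee1 and Cks1b were each called in 3 and Cdc25b in 2 of the 6 fits without a library, and 0 of these 3 were called when a change beyond 1.2-fold was required. The ubiquitin ligase gene Skp2 had 2 to 16 counts in a library and did not pass the filter.

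The CDK-activating kinase, which phosphorylates the T-loop of Cdk2, Cdk4 and Cdk6 and is also part of the transcription factor TFIIH, was the list with higher genes. Its assembly factor Mnat1 rose from 85.0 ± 2.58 to 115 ± 12.4 CPM (SD, n = 3; log2 fold change 0.44, edgeR adjusted p = 0.0154) and its cyclin Ccnh from 37.9 ± 2.12 to 50.8 ± 4.03 CPM (0.42, edgeR adjusted p = 0.0189). Each was called in 3 of the 6 fits without a library, with 0 of the 3 genes called without vector replicate 1 or vector replicate 3. The catalytic subunit gene Cdk7 had a log2 fold change of 0.20 (edgeR adjusted p = 0.185); it was chosen after its value was seen.

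**Figure D4:**
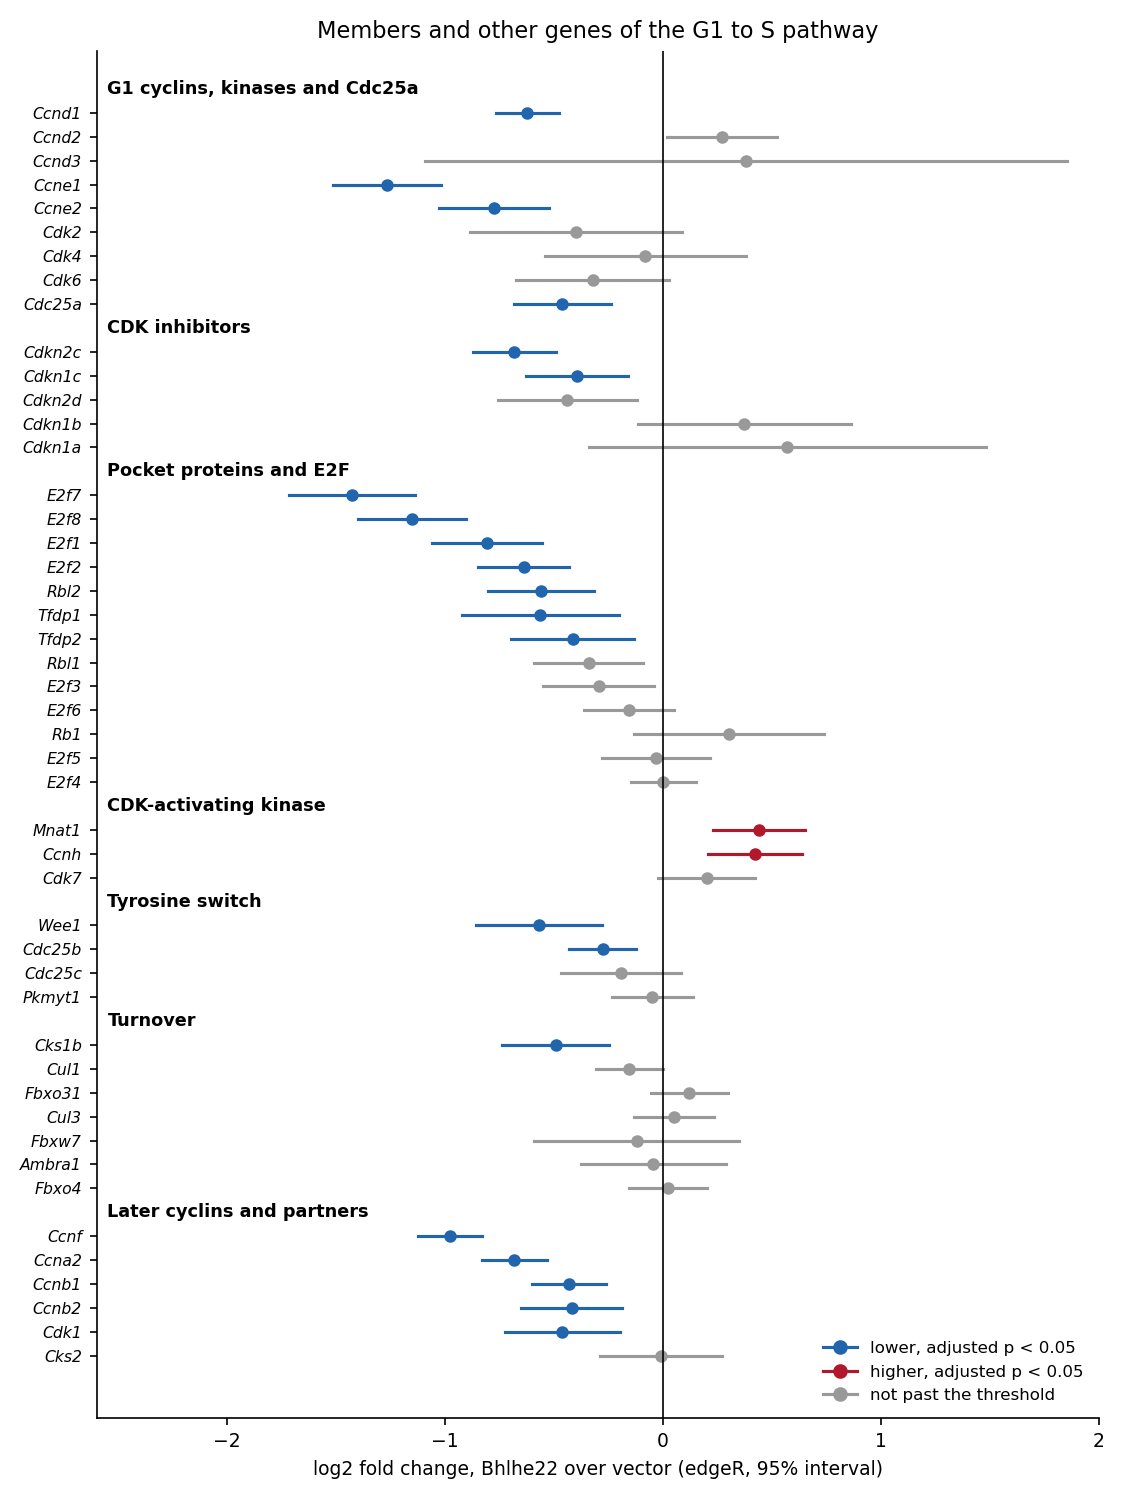
Log2 fold changes of Bhlhe22 over vector cells (points) with 95% intervals (lines) for the 9 genes and the 38 tested genes of the 6 lists. Lower genes stand in each group but the CDK-activating kinase, where Mnat1 and Ccnh are higher.

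The nearest profiles over the 6 libraries, among 10125 other protein-coding genes, are given here for Ccnd1, Ccne1 and Cdk4. These genes were chosen by that profile, so a shared difference between the groups follows from the choice. A link in function was not tested. Ccnd1 was closest to Tuba1c, an alpha-tubulin gene (root mean square distance 0.02 on the log2 scale), Tlcd1 (0.02) and Parpbp (0.03). Ccne1 was closest to Ly6g (0.08), Mcm7, a subunit gene of the replication helicase (0.10), and Uhrf1, a factor of maintenance DNA methylation (0.10). Cdk4 was closest to the proteasome activator gene Psme2 (0.05), Tmem134 (0.05) and the mitochondrial ribosome gene Mrpl12 (0.06). These neighbours of Cdk4 were highest in Bhlhe22 replicate 1, as was Cdk4, which follows from their choice by its profile.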

How the data were processed

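RNA-seq data of 6 RM-1 libraries were analysed, 3 vector and 3 Bhlhe22, grouped by their titles. The authors deposited 1 table, with raw gene counts and FPKM. The submitters' processing notes name CASAVA 1.8, HISAT2 2.1.0, StringTie 1.3.4b, edgeR and GRCm38, and no roles. The annotation release and strandedness: not given in the sources used here. The fit used edgeR 4.0.16 (R 4.3.3) on all genes passing filterByExpr (minimum count 10, minimum total 15), with TMM scaling, robust quasi-likelihood tests and Benjamini-Hochberg adjustment at 0.05, and was tested on simulated data. Ratios used two-sided exact permutation tests (scipy 1.17.1). Exon overlap and exon union lengths came from GENCODE M21, promoters from RefSeq. Members, lists and tests were chosen with earlier results of these data known. Named genes were the 9 members, up to 4 called genes per list by adjusted p, and the 3 nearest profiles of Ccnd1, Ccne1 and Cdk4 among protein-coding genes with at least 5 CPM. Alternatives were DESeq2 1.42.0, limma-voom (limma 3.58.1), other scalings (RLE, upper quartile, library size) and filters (none, 1 CPM in 3 samples), limma on log2(FPKM + 1), a non-robust fit, glmTreat against 1.2-fold, a block for replicate number, a fit of protein-coding genes, fits without each library in turn and, for ratios, a pseudocount of 0.1, counts and, added after seeing the data, exon union length. All count columns were used. Some cell type markers are not reported here.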

Additional observations from a re-analysis of the deposited data

How the results depend on the processing

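Ccnd1, Ccne1 and Ccne2 kept their direction and call in the 12 other settings and in the 6 fits without a library. With a test against a 1.2-fold change 685 genes were called higher and 579 lower, of the 9 genes 0 and 3, and of the listed pathway genes 0 and 8. Leaving out each library gave 715 to 2345 higher and 633 to 2337 lower genes, the highest counts being those without Bhlhe22 replicate 1. Among the 9 genes it gave 0 to 1 higher and 3 to 6 lower, and among the pathway genes 0 to 3 higher and 8 to 18 lower. The log2 fold change of Cdk4 then ranged from -0.3517 to 0.0429. The ratio differences ranged from -0.84 to 0.21 for Ccnd2 over Ccnd3, from -0.17 to 0.47 for Cdk4 over Cdk6 and from -0.3623 to 0.0123 for D-type cyclins over Cdk4 and Cdk6. The cause was not tested. No label says that replicate numbers pair samples, and deviations of same-numbered libraries correlated at 0.03, 0.02 and 0.02, with 0 of 6 libraries closest to their own number. With the replicate block 1086 genes were higher and 993 lower, of the 9 genes 0 and 4, and of the pathway genes 2 and 13. For the ratios, pairing by number leaves the differences of means as they are by construction (-0.88 for Ccnd1 over Ccnd2), and the exact permutation p of the 3 ratios without overlap was 0.25 with the block, the smallest it can give. Counts of 2 to 16 per library limit Skp2.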
